A study of Homo sapiens with 6 samples.

Results

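Semaphorins, plexins and neuropilins form a ligand and receptor system, of which 31 genes were looked up by symbol among the 25268 gene symbols of an RNA-seq table: 20 semaphorins, 9 plexins and 2 neuropilins. All 31 were listed, and 22 were kept for testing because 2 or more of the 6 libraries had 1 FPKM or above, as 12169 symbols were in all. FPKM divides a gene's fragments by its transcript length and by the size of the library, so levels of different genes can be roughly set beside each other. A limit is that levels here also differed between replicates with the GC content of the transcripts, as described below. The cells were A673, an established line of Ewing sarcoma, a tumour of bone and soft tissue in the young. Its driver is the EWS-FLI1 protein, a fusion with the DNA-binding domain of the transcription factor FLI1.

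The groups were A673 cells given esiRNA against USP9X (esiUSP9X), esiRNA against FLI1, labelled as EWS-FLI1 knockdown (esiFLI1), or esiRNA against GFP as the non-targeting control (esiGFP), with 2 libraries each, numbered 1 and 2. An esiRNA is a pool of short interfering RNAs cut by an enzyme from a long double-stranded RNA, and USP9X is a deubiquitinase, an enzyme that takes ubiquitin off other proteins. RNA was taken 72 h after transfection in every group. All libraries come from a single cell line and every group, the control included, was transfected. The labels do not say that replicates are separate cultures, so p-values here cover just the spread among these libraries, which may be technical.

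Semaphorins are secreted or membrane-bound proteins that were found as repellents of growing axons and also shape blood vessels, bone and migrating cells. Most class 3 semaphorins are secreted and bind a neuropilin, which passes the signal to a class A plexin, while most membrane-bound semaphorins bind plexins directly. Plexins act inside the cell through a GTPase-activating domain and partner GTPases that loosen adhesion and the actin skeleton, and neuropilins are also co-receptors for vascular endothelial growth factors (VEGF).

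In esiFLI1 cells, the neuropilin NRP1, the plexins PLXND1 and PLXNC1, and the semaphorins SEMA3A, SEMA3C and SEMA6D each stood at 2.85 to 5.06 times the esiGFP level of the same replicate number, and no kept gene of the family was called lower. In esiUSP9X cells, no gene of the family passed the test. The levels of FLI1 and USP9X checked the labels. FLI1 had 12.7 and 14.1 FPKM in esiFLI1 libraries, against 24.1 and 36.4 FPKM in esiGFP libraries, and USP9X had 5.31 and 7.10 FPKM in esiUSP9X libraries, against 20.6 and 26.5 FPKM in esiGFP libraries. FLI1 RNA in esiUSP9X libraries was 25.0 and 31.9 FPKM, within the esiGFP range. USP9X RNA in esiFLI1 libraries was 26.2 and 37.7 FPKM, each above the esiGFP library of the same number. In limma's fit, explained with the first comparison, FLI1 differed by -1.09 in esiFLI1 (adjusted p = 0.13, blocked 4.4e-04). USP9X differed by -1.77 in esiUSP9X (limma adjusted p = 1, blocked 4.5e-04) and by 0.41 in esiFLI1 (limma adjusted p = 0.6, blocked 0.013).

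Between 11310 and 12071 symbols reached 1 FPKM in a library, and since the files give no depth, a value at or near 0 is not read as absence. Of 10 Ewing sarcoma markers, 9 were kept, with a summed level of 930 and 889 FPKM in esiUSP9X, 492 and 496 FPKM in esiFLI1, and 907 and 943 FPKM in esiGFP libraries. CD99, a surface marker of the tumour, was listed at 0 in all 6 libraries, which may be a failed estimate. Of 7 endothelial markers 1 was kept (EMCN), and PECAM1, CDH5, VWF and TEK, which define that cell type, were at most 0.169 FPKM in any library. The 7 summed to 16.7 and 24.7 FPKM in esiUSP9X, 29.5 and 50.7 FPKM in esiFLI1, and 19.7 and 22.8 FPKM in esiGFP libraries. Of 6 blood markers 1 was kept (CD68), with sums of 2.08 and 1.91 FPKM in esiUSP9X, 8.01 and 4.60 FPKM in esiFLI1, and 3.90 and 2.77 FPKM in esiGFP libraries. Of 6 epithelial markers 0 were kept, and CDH1, KRT5 and KRT14 were listed at 0 throughout. The epithelial sums were 0.432 and 0.646 FPKM in esiUSP9X, 3.16 and 1.26 FPKM in esiFLI1, and 0.742 and 0.315 FPKM in esiGFP libraries. Most of the esiFLI1 sum was CLDN4, a tight junction protein, with 2.81 and 0.918 FPKM in esiFLI1 and 0.210 and 0.0381 FPKM in esiGFP libraries. Of 5 neuron markers 3 were kept, summing to 150 and 103 FPKM in esiUSP9X, 163 and 91.3 FPKM in esiFLI1, and 229 and 136 FPKM in esiGFP libraries. Of 6 fibroblast and smooth muscle markers 5 were kept, summing to 133 and 92.5 FPKM in esiUSP9X, 324 and 193 FPKM in esiFLI1, and 170 and 134 FPKM in esiGFP libraries. The fibroblast, endothelial, blood and epithelial sums were each highest in the esiFLI1 libraries, as were the 6 genes named above. Most of the endothelial sum was EMCN, of the blood sum CD68 and of the neuron sum TUBB3. Of the 5 kept fibroblast and smooth muscle markers, 4 had esiFLI1 libraries wholly above esiGFP libraries, where 19.8% of all kept genes did. THY1 ran the other way, with 40.9 and 18.3 FPKM in esiFLI1 and 54.9 and 30.1 FPKM in esiGFP libraries. The endothelial marker ESAM, not kept, was also lowest in esiFLI1 libraries. The part of the markers in the levels of the 6 genes was not tested.

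Setting esiFLI1 against esiGFP shows which genes of the family differ in level when the fusion is knocked down. Each test used limma on log2(FPKM + 1) over all 12169 kept genes, with Benjamini-Hochberg adjustment and a threshold of 0.05. Replicates with the same number deviated together across genes, so a second fit with the replicate number as a block is given as the blocked value. Without the block 2 genes of the family rose and 0 fell, where 2.58% of all kept genes were called higher and 0.23% lower. With it 15 rose and 0 fell, where 20.6% of all kept genes were called higher and 21.6% lower. The 22 kept genes had a median log2 difference of 0.49, against -0.03 over all kept genes. SEMA3B reached 1 FPKM only in esiFLI1 libraries and PLXNC1 in 1 library outside esiFLI1, so passing the filter already favoured a higher esiFLI1 level for them. In bulk RNA, more RNA per cell and more cells that carry it cannot be told apart.

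Among the receptors, NRP1, which binds SEMA3A and VEGF, had 31.1 and 25.4 FPKM in esiFLI1 libraries, against 6.15 and 6.03 FPKM in esiGFP libraries. The groups lay far apart, and the level averaged 28.3 ± 4.03 FPKM in esiFLI1 and 6.09 ± 0.0849 FPKM in esiGFP (SD, n = 2 each). NRP1 rose by 2.04 on the log2 scale in limma's fit (SE 0.21, adjusted p = 0.017; blocked SE 0.11, adjusted p = 2e-05). NRP2, the neuropilin that SEMA3F prefers, had 1.89 and 1.11 FPKM in esiFLI1 libraries and 0.729 and 1.01 FPKM in esiGFP libraries. The lowest esiFLI1 value was just above the highest esiGFP value, and NRP2 did not pass in either fit (blocked adjusted p = 0.12).

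PLXND1, the plexin that binds SEMA3E without a neuropilin and acts in vessel patterning, had 26.1 and 12.2 FPKM in esiFLI1 libraries, against 7.62 and 4.11 FPKM in esiGFP libraries. Both libraries numbered 1 were higher than those numbered 2, and the groups did not overlap. The difference was 1.51 (SE 0.48, limma adjusted p = 0.22; blocked SE 0.12, adjusted p = 9.1e-05), so the call rests on the block, as it does for the plexins that follow. PLXNC1, the receptor of SEMA7A, had 2.78 and 3.97 FPKM in esiFLI1 libraries, against 0.782 and 0.828 FPKM in esiGFP libraries. Its difference was 1.26 (SE 0.21, limma adjusted p = 0.051; blocked adjusted p = 3.7e-04).

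PLXNB2, a receptor of class 4 semaphorins, was the plexin with the highest level, with 64.4 and 39.4 FPKM in esiFLI1 libraries and 50.1 and 26.7 FPKM in esiGFP libraries. Its groups overlapped, but each esiFLI1 library was above the esiGFP library of its number, by 1.28 and 1.48 times (blocked log2 difference 0.45, adjusted p = 0.019). PLXNA3, a class A plexin, also rose in the blocked fit (0.46, limma adjusted p = 0.021), at 8.29 and 4.02 FPKM in esiFLI1 and 6.25 and 2.41 FPKM in esiGFP libraries. PLXNA1, a neuropilin partner, had 16.2 and 7.60 FPKM in esiFLI1 and 15.0 and 6.06 FPKM in esiGFP libraries and did not pass. PLXNB1, the receptor of SEMA4D, had 3.49 and 1.82 FPKM in esiFLI1 and 3.33 and 1.75 FPKM in esiGFP libraries and did not pass either. The remaining plexins, PLXNA2, PLXNA4 and PLXNB3, were not kept.

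**Figure D1:**
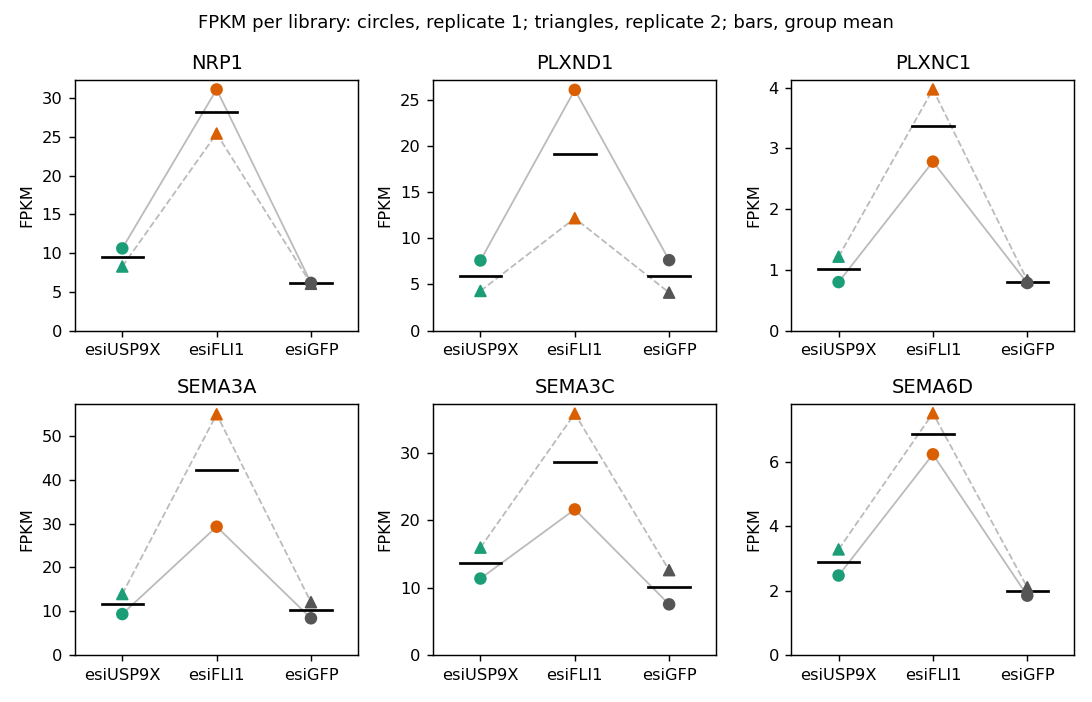
FPKM of NRP1, PLXND1, PLXNC1, SEMA3A, SEMA3C and SEMA6D in each library by group, with circles for replicate 1, triangles for replicate 2, lines joining libraries of one replicate number and bars at group means. In all 6 panels both esiFLI1 libraries lie above both esiUSP9X and both esiGFP libraries.

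Among the secreted class 3 ligands, SEMA3A, which repels axons through NRP1, had 29.3 and 54.9 FPKM in esiFLI1 libraries, against 8.36 and 12.0 FPKM in esiGFP libraries. These are 3.50 and 4.57 times the control of the same number. Unlike PLXND1, libraries numbered 2 were the higher ones in both groups. SEMA3A rose by 1.90 in limma's blocked fit (blocked SE 0.12, adjusted p = 4.2e-05), and was not called without the block (SE 0.39, limma adjusted p = 0.086).

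SEMA3C, which guides neural crest cells into the outflow tract of the heart, had 21.6 and 35.9 FPKM in esiFLI1 libraries, against 7.52 and 12.6 FPKM in esiGFP libraries. The ratios of 2.88 and 2.85 in the same-numbered pairs were nearly equal although the levels were not. SEMA3C rose by 1.42 in limma's blocked fit (adjusted p = 7.4e-05; 0.15 without the block). SEMA3D, a relative of SEMA3C and the semaphorin with the highest esiGFP level, had 23.9 and 50.7 FPKM in esiFLI1 and 17.8 and 30.96 FPKM in esiGFP libraries. Its groups overlapped and its rise was smaller (0.55, blocked limma adjusted p = 0.0082; 0.70 without the block).

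SEMA3B and SEMA3F, which lie on chromosome 3 and have been studied as tumour suppressors in lung cancer, had lower levels. SEMA3B had 5.20 and 2.19 FPKM in esiFLI1 libraries, against 0.876 and 0.249 FPKM in esiGFP libraries, and rose by 1.54 in limma's blocked fit (adjusted p = 6.1e-04; 0.13 without the block). SEMA3F had 8.63 and 4.88 FPKM in esiFLI1 and 6.51 and 3.43 FPKM in esiGFP libraries and rose by 0.38 in limma's blocked fit (adjusted p = 0.040; 0.75 without the block). RefSeq lists antisense genes for SEMA3B, SEMA3F, SEMA6A and PLXNC1 among the kept genes, and with no statement on whether the authors' counting used the strand, their reads and those of their antisense partners cannot be told apart. SEMA3E and SEMA3G were not kept.

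Among the membrane-bound class 6 semaphorins, SEMA6D, a ligand of PLXNA1, had 6.23 and 7.51 FPKM in esiFLI1 libraries, against 1.84 and 2.10 FPKM in esiGFP libraries. It was, with NRP1, the gene called in both fits (1.40, SE 0.20, limma adjusted p = 0.037; blocked adjusted p = 9.6e-05). SEMA6A, which binds PLXNA2 and PLXNA4, had 2.62 and 2.42 FPKM in esiFLI1 and 1.62 and 1.57 FPKM in esiGFP libraries, a small difference between groups that did not overlap (0.44, blocked limma adjusted p = 0.018). SEMA6C had 5.29 and 1.92 FPKM in esiFLI1 and 2.49 and 0.832 FPKM in esiGFP libraries (0.76, blocked limma adjusted p = 0.0043). SEMA6B had 12.4 and 4.62 FPKM in esiFLI1 and 10.1 and 2.63 FPKM in esiGFP libraries and did not pass (blocked adjusted p = 0.072).

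Class 4 was split. SEMA4B had 6.63 and 2.605 FPKM in esiFLI1 and 3.41 and 0.994 FPKM in esiGFP libraries, and rose by 0.82 in limma's blocked fit (adjusted p = 0.0038). SEMA4F had 4.25 and 2.46 FPKM in esiFLI1 and 2.32 and 1.66 FPKM in esiGFP libraries, and rose by 0.52 in limma's blocked fit (adjusted p = 0.011). SEMA4C, a PLXNB2 ligand with 16.4 and 7.11 FPKM in esiFLI1 and 14.5 and 7.26 FPKM in esiGFP libraries, did not pass. SEMA4D, the PLXNB1 ligand, had 3.31 and 2.54 FPKM in esiFLI1 and 3.42 and 2.17 FPKM in esiGFP libraries, with a blocked 95% interval of the difference from -0.21 to 0.34. SEMA4G, with 1.56 and 0.905 FPKM in esiFLI1 and 1.66 and 0.929 FPKM in esiGFP libraries, was the sole kept gene below its control in both same-numbered pairs, by amounts that did not pass (blocked interval -0.33 to 0.26). In all, 19 of the 22 kept genes were higher and 1 lower in both same-numbered pairs, where 38.5% and 43.7% of all kept genes were. In 10 of the 22 the esiFLI1 libraries lay wholly above the esiGFP libraries, where 19.8% of all kept genes did.

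**Figure D2:**
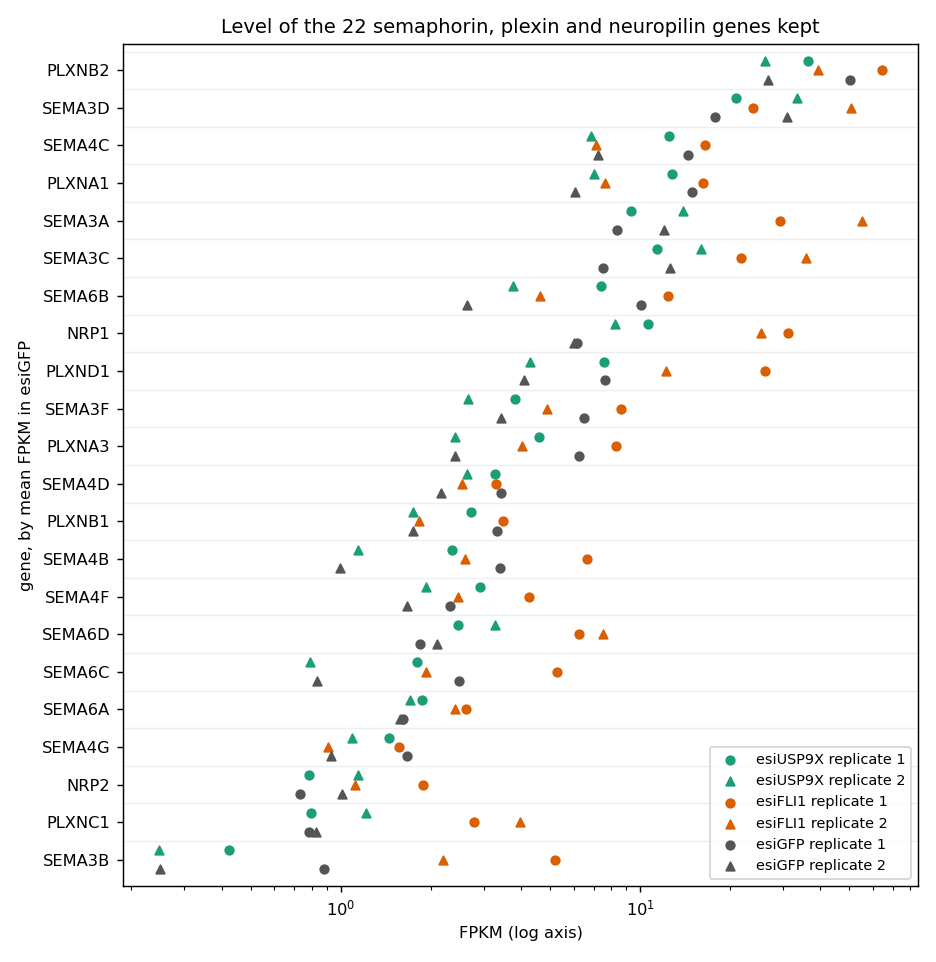
FPKM on a log axis of the 22 kept genes in each of the 6 libraries, ordered by mean esiGFP level, with esiUSP9X, esiFLI1 and esiGFP from top to bottom within a gene, circles for replicate 1 and triangles for replicate 2. Levels run from under 1 FPKM (SEMA3B) to over 50 FPKM (PLXNB2, SEMA3A, SEMA3D).

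The limits of these calls differ between genes. A fit with a library left out has fewer residual degrees of freedom, so its p-values lean on the spread that limma shares over genes. The calls without a block (NRP1 and SEMA6D) were lost when any 1 of the 6 libraries was left out, as were most calls over all kept genes. With the block, NRP1, PLXND1, PLXNC1, SEMA3A, SEMA3C and SEMA6D stayed called whichever library was left out, and the other 9 lost the call in at least 1 of these fits. SEMA3B was no longer kept when either esiFLI1 library was left out. Fewer of all kept genes were called in each of these fits too, so the lost calls are not read as particular to these 9 genes. Over the alternatives run for these 6 genes, limma's adjusted p ran from 2.5e-30 (NRP1) to 0.61 (PLXND1), and the highest in the 11 fits with a block was 0.017 (PLXNC1).

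Promoter sequence was read for the genes that rose together. RefSeq windows of 300 bases that run from upstream of a start to just past it (GRCh38.p14, another build than the authors' hg19) were found for 27 of the 31 genes, with SEMA3A, SEMA6A, SEMA6B and NRP1 missing from the table, and where a gene has several the window farthest upstream was used. The letters searched on both strands were GGAA, the core bound by ETS factors such as FLI1, its tandem GGAAGGAA, which contains GGAA 2 times and whose longer repeats EWS-FLI1 is known to bind, and TGANTCA, the AP-1 element. Of the risers with a window, the 4 with a call that stayed whichever library was left out are shown, with GGAA and its reverse complement TTCC in capitals.
PLXND1: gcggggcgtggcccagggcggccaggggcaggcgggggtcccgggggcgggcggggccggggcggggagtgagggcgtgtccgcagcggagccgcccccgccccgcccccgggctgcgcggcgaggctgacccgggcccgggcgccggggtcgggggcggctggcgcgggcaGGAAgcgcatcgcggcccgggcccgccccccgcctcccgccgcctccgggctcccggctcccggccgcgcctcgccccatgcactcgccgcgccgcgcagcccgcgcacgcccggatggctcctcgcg
PLXNC1: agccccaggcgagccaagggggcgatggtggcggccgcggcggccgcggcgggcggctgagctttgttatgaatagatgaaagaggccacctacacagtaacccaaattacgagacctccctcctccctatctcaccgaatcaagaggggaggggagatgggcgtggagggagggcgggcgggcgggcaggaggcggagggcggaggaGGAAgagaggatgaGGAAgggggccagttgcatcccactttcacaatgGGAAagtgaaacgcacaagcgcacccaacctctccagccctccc
SEMA3C: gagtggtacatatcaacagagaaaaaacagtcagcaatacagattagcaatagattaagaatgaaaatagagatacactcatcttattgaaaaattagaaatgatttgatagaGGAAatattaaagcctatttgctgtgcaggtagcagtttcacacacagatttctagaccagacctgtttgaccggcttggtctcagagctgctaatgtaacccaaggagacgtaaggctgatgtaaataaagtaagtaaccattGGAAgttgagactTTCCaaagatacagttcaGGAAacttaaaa
SEMA6D: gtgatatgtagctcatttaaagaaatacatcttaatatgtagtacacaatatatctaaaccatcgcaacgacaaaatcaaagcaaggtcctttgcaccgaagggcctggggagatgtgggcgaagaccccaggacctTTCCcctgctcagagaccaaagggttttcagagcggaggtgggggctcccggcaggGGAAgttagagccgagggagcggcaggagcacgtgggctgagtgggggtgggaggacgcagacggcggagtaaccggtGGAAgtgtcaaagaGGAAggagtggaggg
PLXND1 (chr3:129606627-129606926, minus strand) held 1 GGAA, PLXNC1 (chr12:94148327-94148626, plus strand) 3, SEMA3C (chr7:80922340-80922639, minus strand) 4 and SEMA6D (chr15:47183839-47184138, plus strand) 4, against a mean of 3.51 over all 35116 windows of the table. Most of the 27 family windows held fewer GGAA than that mean, with 5 at most (PLXNA4 and PLXNB1). The values over all windows count every window of a gene, whereas each family gene has 1, so the sides were chosen differently. At least 1 GGAA was in 25 of the 27 family windows (92.6%), against 95.5% of all windows. GGAAGGAA was in 1 of the 27, that of PLXNB1 (3.70%, against 3.67% of all), and TGANTCA in 0 of the 27, against 7.71% of all. The shares for GGAA and GGAAGGAA were close to those of all windows, and a match or its lack in these letters says nothing of whether a factor binds there.

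The 9 genes that were not kept had low values. SEMA7A, the PLXNC1 ligand, had 1.24 and 0.515 FPKM in esiFLI1 and 0.796 and 0.419 FPKM in esiGFP libraries. SEMA5B, of the thrombospondin-repeat class, had 0.941 and 0.422 FPKM in esiFLI1 and 0.838 and 0.529 FPKM in esiGFP libraries. SEMA4A lay between 0.155 and 0.350 FPKM in the 6 libraries, and SEMA3E and SEMA3G between 0.0197 and 0.214 FPKM. SEMA5A had 0.0197 and 0.00984 FPKM in esiFLI1 and at most 0.00379 FPKM elsewhere. PLXNA2 had 0.0549 and 0.0298 FPKM in esiFLI1 and 0.00289 and 0.00654 FPKM in esiGFP libraries, and PLXNA4 had 0.0622 and 0.0349 FPKM in esiFLI1 and 0.00309 and 0.00270 FPKM in esiGFP libraries. PLXNB3 had 0.510 and 0.223 FPKM in esiFLI1 and 0.156 and 0.00704 FPKM in esiGFP libraries. These plexins were highest in the esiFLI1 libraries, at levels too low to be tested here.

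Co-receptors, other neuropilin ligands and proteins that act below plexins were described from a list of 62 genes, of which 47 were kept. In esiFLI1, 5 rose and 0 fell without the block, where 2.58% of all kept genes were called higher and 0.23% lower. With it 16 rose and 4 fell, where 20.6% and 21.6% of all kept genes were called higher and lower. The list's median log2 difference was 0.13, against -0.03 over all kept genes. L1CAM, a cell adhesion molecule that joins NRP1 in the SEMA3A receptor, had 29.9 and 14.7 FPKM in esiFLI1 libraries, against 0.542 and 0.182 FPKM in esiGFP libraries (4.03, SE 0.36, limma adjusted p = 0.012). RND3, of the Rnd GTPases that bind plexins, had 33.2 and 43.5 FPKM in esiFLI1 libraries, against 9.82 and 12.1 FPKM in esiGFP libraries (1.71, SE 0.22, limma adjusted p = 0.028). ITGA1, the integrin chain that with ITGB1 forms a SEMA7A receptor, had 12.0 and 17.7 FPKM in esiFLI1 libraries, against 2.29 and 3.17 FPKM in esiGFP libraries (2.07, SE 0.26, limma adjusted p = 0.027). L1CAM and KDR, like SEMA3B, reached 1 FPKM only in esiFLI1 libraries.

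The list also holds VEGF receptors and VEGF ligands, which share the neuropilins with semaphorins. The VEGF receptor FLT1 had 7.57 and 10.5 FPKM in esiFLI1 libraries, against 1.44 and 2.01 FPKM in esiGFP libraries (1.87, SE 0.22, limma adjusted p = 0.025). KDR, the other VEGF receptor of the list that rose, had 1.30 and 1.33 FPKM in esiFLI1 libraries, against 0.106 and 0.0885 FPKM in esiGFP libraries (1.08, SE 0.12, limma adjusted p = 0.019). The NRP1 ligand PGF had 94.7 and 44.6 FPKM in esiFLI1 libraries, against 43.6 and 21.97 FPKM in esiGFP libraries (1.05, blocked limma adjusted p = 2.5e-04; 0.46 without the block). VEGFA, the main VEGF ligand of NRP1, had 14.2 and 11.7 FPKM in esiFLI1 libraries, against 30.5 and 26.4 FPKM in esiGFP libraries, and fell by 1.08 in limma's blocked fit (adjusted p = 1.5e-04; 0.076 without the block). The VEGF receptor FLT4, with 0.504 and 0.190 FPKM in esiFLI1 and 0.743 and 0.478 FPKM in esiGFP libraries, was not kept. The ligand VEGFC, with 0.146 and 0.158 FPKM in esiFLI1 and listed at 0 in both esiGFP libraries, was not kept either. PGF, VEGFA, FLT4 and VEGFC were named after their values were seen. Without a block, only L1CAM of these 5 list genes stayed called when either esiUSP9X library was left out. None did when any other library was left out, and most calls over all kept genes were lost in these fits too.

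Setting esiUSP9X against esiGFP shows what the family did when USP9X was knocked down. In limma's fits 0 of the 22 kept genes were called, with or without the block, where 0.0247% of all kept genes were called higher and 0% lower without it, and 0.074% and 0.164% with it. At an unadjusted p under 0.05 there was 1 gene without the block and 4 with it, NRP1, SEMA3C, SEMA3F and SEMA6D. The share of all kept genes at that cutoff is not given here, so these counts are not read as an excess. The median log2 difference was 0.01, against -0.01 over all kept genes, and the 22 genes ran from -0.45 (SEMA3F) to 0.55 (NRP1). In 3 of the 22 (SEMA6A, SEMA6D and NRP1) the esiUSP9X libraries lay wholly above the esiGFP libraries, where 8.75% of all kept genes did. NRP1 had 10.6 and 8.26 FPKM in esiUSP9X libraries, against 6.15 and 6.03 FPKM in esiGFP libraries. The difference was 0.55 with a blocked 95% interval from 0.29 to 0.81 (limma adjusted p = 1; blocked 0.16). Over its 24 alternatives NRP1 was called only with the block and without esiGFP replicate 2, a fit that also called more of all kept genes.

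SEMA3C had 11.4 and 16.0 FPKM in esiUSP9X and 7.52 and 12.6 FPKM in esiGFP libraries (blocked interval 0.18 to 0.67, blocked limma adjusted p = 0.24). SEMA6D had 2.47 and 3.28 FPKM in esiUSP9X and 1.84 and 2.10 FPKM in esiGFP libraries (blocked interval 0.12 to 0.63, blocked limma adjusted p = 0.30). SEMA3F pointed the other way, with 3.83 and 2.66 FPKM in esiUSP9X and 6.51 and 3.43 FPKM in esiGFP libraries (blocked interval -0.74 to -0.16, blocked limma adjusted p = 0.27). None of these passed the adjustment over all genes. SEMA3A had 9.32 and 13.9 FPKM in esiUSP9X and 8.36 and 12.0 FPKM in esiGFP libraries (blocked interval -0.12 to 0.45). PLXND1 had 7.59 and 4.29 FPKM in esiUSP9X and 7.62 and 4.11 FPKM in esiGFP libraries (blocked interval -0.25 to 0.30). PLXNC1 had 0.797 and 1.22 FPKM in esiUSP9X and 0.782 and 0.828 FPKM in esiGFP libraries (blocked interval -0.17 to 0.46).

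Of the 47 kept list genes, 0 were called without the block, where 0.0247% of all kept genes were called higher and 0% lower, and 1 fell with it, where 0.074% were called higher and 0.164% lower. That gene was PGF, with 21.9 and 11.8 FPKM in esiUSP9X libraries, against 43.6 and 21.97 FPKM in esiGFP libraries (-0.90, SE 0.54, limma adjusted p = 1; blocked SE 0.10, adjusted p = 0.021). The call ended with the block when either esiUSP9X or either esiFLI1 library was left out, with limma adjusted p from 3.9e-05 to 1 over its 24 alternatives. With PGF, the list genes with the smallest unadjusted p without the block were CRMP1, a mediator of the SEMA3A response (-0.63), MET, a PLXNB1 partner (0.26), and MICAL1, a plexin-binding enzyme that oxidises actin (-0.52). CRMP1 had 6.68 and 6.29 FPKM in esiUSP9X libraries, against 11.7 and 9.53 FPKM in esiGFP libraries (blocked limma adjusted p = 0.13).

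**Figure D3:**
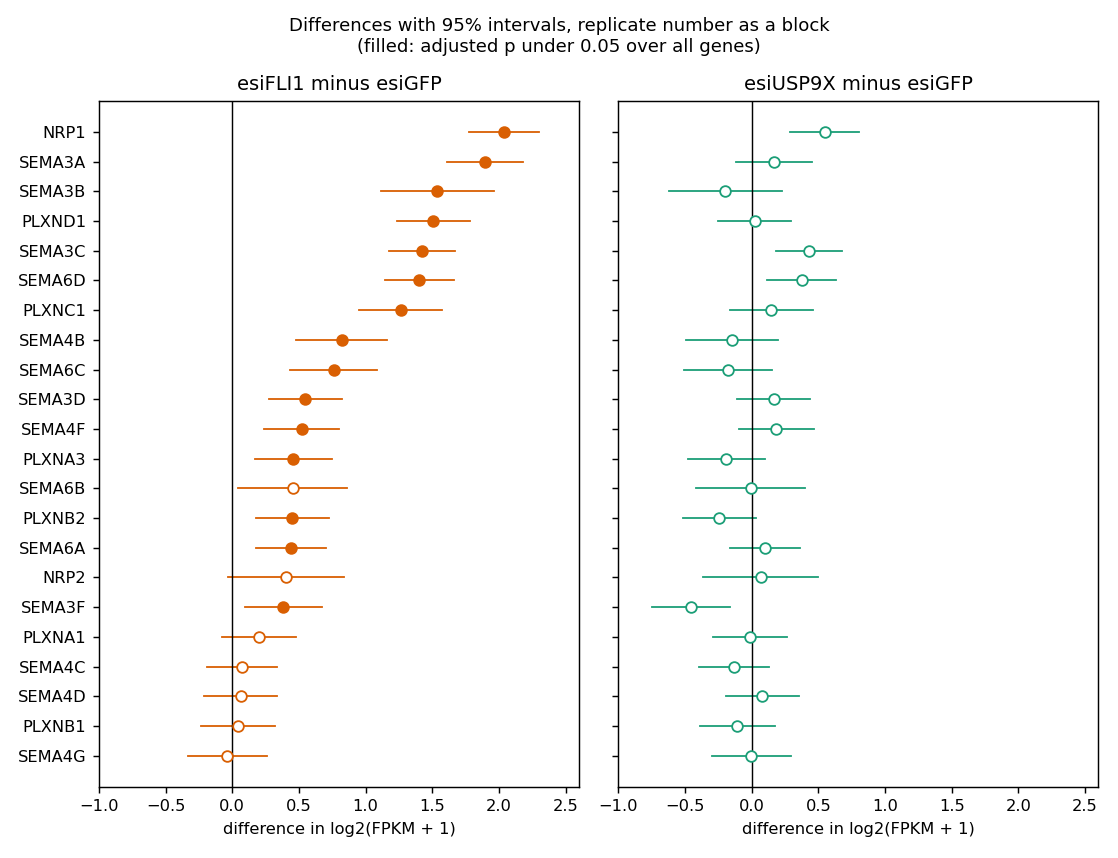
Differences in log2(FPKM + 1) of the 22 kept genes, esiFLI1 minus esiGFP on the left and esiUSP9X minus esiGFP on the right, with 95% intervals from the fit with the replicate block and filled points at an adjusted p under 0.05. Of the points, 15 are filled on the left, all above 0, and 0 on the right, and both panels use the same esiGFP libraries.

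The comparison of esiUSP9X with esiFLI1 tests the difference between the effects, since both share their esiGFP libraries. Without the block 1 gene of the family was lower in esiUSP9X and 0 higher, where 2.66% of all kept genes were lower and 0.419% higher. With it 14 were lower and 0 higher, where 20.9% and 20.2% were. In 12 of the 22 the esiUSP9X libraries lay wholly below the esiFLI1 libraries, where 21.1% of all kept genes did. SEMA3B, and the list genes L1CAM and KDR below, reached 1 FPKM only in esiFLI1 libraries, and PLXNC1 in 1 library outside esiFLI1. Passing the filter already favoured a lower esiUSP9X level for these 4 genes. NRP1, at 10.6 and 8.26 FPKM in esiUSP9X and 31.1 and 25.4 FPKM in esiFLI1 libraries, differed by -1.49 (SE 0.21, limma adjusted p = 0.037, blocked 7.3e-05). Its call without the block was lost when any 1 library was left out, as were most calls over all kept genes. SEMA3A differed by -1.73, PLXND1 by -1.49, PLXNC1 by -1.12, SEMA6D by -1.03 and SEMA3C by -0.998, each with a blocked limma adjusted p of at most 6e-04 and none called without the block. SEMA3F, at 3.83 and 2.66 FPKM in esiUSP9X and 8.63 and 4.88 FPKM in esiFLI1 libraries, differed by -0.84 (blocked limma adjusted p = 0.0016). With the block, 10 of the 14 stayed called whichever library was left out. Of the 47 list genes, 5 were lower and 0 higher without the block (RND3, L1CAM, KDR, FLT1 and ITGA1), and 17 were lower and 3 higher with it. VEGFA was among the 3, at 33.98 and 28.0 FPKM in esiUSP9X and 14.2 and 11.7 FPKM in esiFLI1 libraries (1.20, blocked limma adjusted p = 9e-05).

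Levels of many of these genes also differed between replicates 1 and 2 in every group. Of the 22 kept genes, 16 were higher in replicate 1 in all 3 groups and 5 were lower in all 3, where 47.3% of all kept genes were higher in all 3. The replicate difference followed the GC content of the transcripts (median over GENCODE v29 transcripts of the gene). SEMA6B, with 64.7% GC, had a mean difference of 1.23 on the log2 scale between replicates 1 and 2, PLXNA1, with 60.9%, had 0.99, and NRP1, with 46.2%, had 0.21. SEMA3A, with 42.5% GC, had -0.63, and SEMA3D, with 41.0%, had -0.83. Across the 22 genes, which share the same 6 libraries, Pearson's r was 0.91 and Spearman's rho 0.87, and across the 11470 kept genes with a GC value (94.3%) r was 0.80. These are descriptions across genes, which are not independent replicates. With the GC trend of each library removed, a step added after the data were seen, limma called 12 genes of the family higher in esiFLI1 than in esiGFP without a block and 17 with it, with 0 lower. Under the same correction 1254 of all 12169 kept genes were called higher and 899 lower without a block, and 2810 higher and 3392 lower with it.

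**Figure D4:**
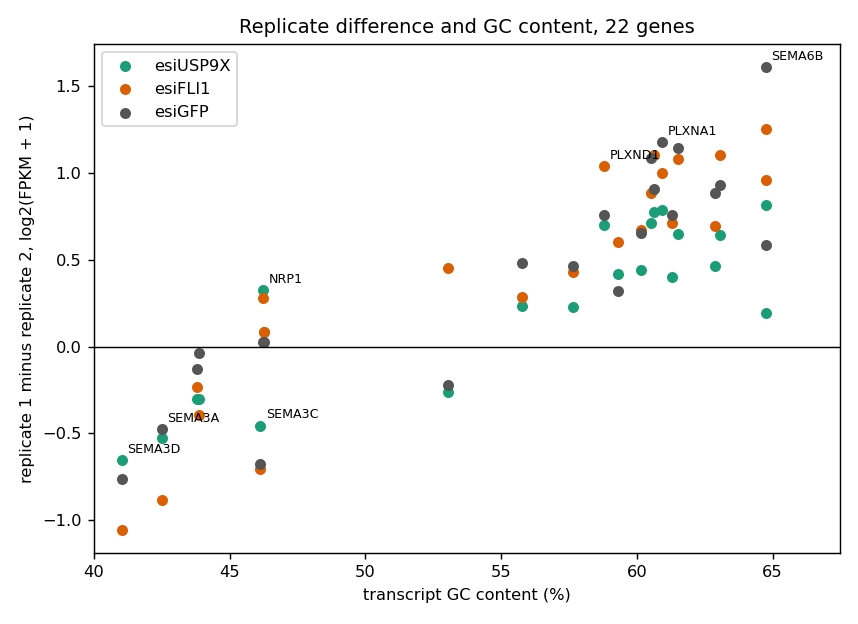
Replicate 1 minus replicate 2 in log2(FPKM + 1) against transcript GC content for the 22 kept genes, with a point per group in esiUSP9X, esiFLI1 and esiGFP colours. Points lie below 0 near 41.0% GC (SEMA3D) and, near the highest GC content, at 0.81 to 1.61 for SEMA6B (64.7%) and 0.19 to 0.96 for SEMA3B (64.8%).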

How the data were processed

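RNA was sequenced from 6 libraries of A673 cells. Per the labels' protocols, ribosomal RNA was removed from 2 µg of total RNA with a stranded kit, and an Illumina NextSeq500 read single ends of 75 nt. TopHat, Cufflinks, Cuffdiff, hg19 and GRCh37 appear in the submitters' processing notes without version or role. The deposited table holds FPKM made by the authors, 1 value per symbol and library; whether its counting used the strand is not given in the sources used here. A stray last line was dropped.

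Log2(FPKM + 1) of the 12169 symbols with at least 1 FPKM in at least 2 libraries was modelled by 3 group means over all 6 libraries, using limma 3.58.1 (R 4.3.3; lmFit, then eBayes with a mean trend). Tests were two-sided, and p-values were adjusted by Benjamini-Hochberg over all kept genes. Fold changes on this scale understate those of low genes. This fit had 3 residual degrees of freedom, and the fit with the replicate number as a block had 2. To these limma added 2.21 and 5.72 prior degrees of freedom from the spread over genes. Deviations of same-numbered libraries correlated at 0.64 (esiUSP9X and esiFLI1), 0.59 (esiUSP9X and esiGFP) and 0.65 (esiFLI1 and esiGFP) across genes, each over 0.1. So the pairing by number comes from the data, not from the labels. The depth is unknown, so no counting intervals are given.

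The members and lists were chosen with earlier results of these data known. The rule names all 31 genes, FLI1 and USP9X, and, of the 62 list genes, those called without a block or else the 4 with the smallest p. The procedure was tested on simulated data with the same spread for every gene and the same replicate effect in every group. That is the model the block assumes, so it cannot bear on the pairing by number or the p-values here. Alternatives were another pseudocount (0.1 FPKM), no filter or a filter of 5 FPKM, median-of-ratios scaling, quantile normalization, the block, the 2 groups alone, each library left out, and a loess correction for transcript GC content, chosen after seeing the data.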

Additional observations from a re-analysis of the deposited data

How the results depend on the processing

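In the esiFLI1 and esiGFP comparison the count of family genes called was 2 as reported, 15 with the replicate block, 15 with the block and median-of-ratios scaling or a pseudocount of 0.1 FPKM, 11 with the block and quantile normalization, 12 with the GC correction and 17 with it and the block. It was 1 with no filter, with a filter of 5 FPKM or with quantile normalization, and 0 with the 2 groups alone. With a library left out it was 0 to 16 over both fits (0 to 0 without the block, 7 to 16 with it). The list genes were 5 as reported, 20 with the block, also with median-of-ratios scaling or the other pseudocount, 23 with the block and quantile normalization, 14 and 23 with the GC correction without and with the block, 2 with quantile normalization, 1 with the 2 groups alone, and 0 to 17 with a library left out.

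For esiUSP9X and esiGFP, the list genes were 0 as reported and 1 with the block (also with either scaling, the other pseudocount or the GC correction added to it), and 0 to 3 with a library left out. The family genes were 0, except for 1 with the block without esiGFP replicate 2 (0 to 1). For esiUSP9X and esiFLI1, family genes were 1 as reported, 14 with the block and with median-of-ratios scaling added, 13 with quantile normalization or the other pseudocount added, 10 with the GC correction, 16 with it and the block, 0 with the 2 groups alone, and 0 to 17 with a library left out. List genes were 5 as reported, 20 with the block, also with median-of-ratios scaling or the other pseudocount, 21 with the block and quantile normalization, 14 and 23 with the GC correction without and with the block, 3 with quantile normalization, 1 with the 2 groups alone, and 0 to 19 with a library left out. Calls over all kept genes moved with the setting too. In esiFLI1 against esiGFP, 314 were higher and 28 lower as reported, and 2502 and 2623 with the block. They were 2178 and 2532 with the block and quantile normalization, and 59 and 4 with the 2 groups alone. With no filter 519 were higher and 39 lower of 19453. In esiUSP9X against esiFLI1 they were 51 and 324 as reported and 2453 and 2543 with the block. The counts of list genes take higher and lower calls together. The cause of these shifts was not tested.

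Signs turned for 4 genes, none past the threshold there. With a library left out, PLXNA3 in esiFLI1 ran from -0.086 (without esiGFP replicate 2) to 1.0003, VEGFA in esiUSP9X from -0.018 (without esiUSP9X replicate 1) to 0.252, and SEMA3D in esiUSP9X against esiFLI1 from -0.911 to 0.14 (without esiFLI1 replicate 2). FLI1 in esiUSP9X ran from -0.357 to 0.22 (without esiGFP replicate 2), and was 0.10 without esiUSP9X replicate 1 and 0.096 with the block and without esiGFP replicate 2. Of the calls over all genes in esiFLI1 against esiGFP, 91.8% were higher as reported, 48.8% with the block and 58.2% with the GC correction. In esiUSP9X against esiFLI1 these shares were 13.6%, 49.1% and 43.3%, and in esiUSP9X against esiGFP, 3 genes were higher and 0 lower as reported, 9 higher and 20 lower with the block, 3 higher and 1 lower with the GC correction, and 7 higher and 12 lower with both. With 1 library left in a group, that library is assumed to vary like the other groups.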

Other observations

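The genes SEMA3C, SEMA3E, SEMA3A and SEMA3D lie near each other on chromosome 7 with other genes between and beside them. HGF, CACNA2D1, PCLO and CD36 each had both esiFLI1 libraries above both esiGFP libraries, by different amounts, where 19.8% of all kept genes did. HGF and PCLO, below 1 FPKM in all libraries, were not kept, so that share does not cover them. CD36 reached 1 FPKM only in esiFLI1 libraries, so passing the filter already favoured a higher esiFLI1 level for it. GNAT3, just before CD36, and GRM3, just after SEMA3D, were listed at 0 in the esiFLI1 and esiGFP libraries. In RefSeq's order of protein-coding genes, SEMA3C is followed by HGF, CACNA2D1, PCLO, SEMA3E, SEMA3A and SEMA3D, with CD36 just before SEMA3C. HGF, the ligand of the receptor MET, had 0.884 and 0.852 FPKM in esiFLI1 libraries, against 0.0685 and 0.0353 FPKM in esiGFP libraries. CD36, a fatty acid receptor, had 1.15 and 1.56 FPKM in esiFLI1 libraries, against 0.201 and 0.266 FPKM in esiGFP libraries. PCLO, a protein of the presynaptic zone, had 0.560 and 0.735 FPKM in esiFLI1 libraries, against 0.111 and 0.144 FPKM in esiGFP libraries.

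CACNA2D1, a calcium channel subunit, lay closer to its control, with 18.0 and 21.7 FPKM in esiFLI1 libraries and 13.5 and 15.8 FPKM in esiGFP libraries. SEMA3E, which lies between PCLO and SEMA3A, stayed below 0.1 FPKM in all libraries. In esiUSP9X libraries HGF had 0.0471 and 0.0450 FPKM, CD36 had 0.491 and 0.540 FPKM and PCLO had 0.245 and 0.382 FPKM. For CD36 and PCLO both lay above both esiGFP values, where 8.75% of all kept genes did, a share that does not cover PCLO. CACNA2D1 had 15.6 and 17.2 FPKM in esiUSP9X libraries, within or above its esiGFP range. The neighbours were chosen by position with results known and were not tested.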
